A study of Mus musculus with 8 samples.

Results

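The Tex (testis-expressed) genes share a name and little else: their symbols record that each was first found as a transcript of the testis. The genes described here were all those on the array whose symbol is Tex followed by a number, a copy suffix such as the letter of Tex13a included, with Tex12 and Tex101 left out. They numbered 33 of 18193 genes that had a probe set with a single symbol, and where a gene had several probe sets the brightest over all arrays stood for it. RNA of whole testis was compared between 4 mice labelled Brwd1-/- (mutant) and 4 mice titled wild type, all untreated and 27 days old, with 1 array per mouse, so p-values measure the spread between these mice. The genotype entry of the mice titled wild type reads Brwd1+/-, so they may carry 1 mutant copy. The name from their titles is kept below, and the labels do not describe the mutation. By the series' design text, germ cells have finished meiosis at this age and spermatids are partway through their development, so that altered transcripts of spermatids would be visible.

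In the seminiferous tubule, spermatogonia divide and enter meiosis as spermatocytes, and the haploid cells that leave meiosis, the spermatids, build the acrosome and the flagellum and compact their chromatin. Brwd1 encodes a chromatin protein with bromodomains and WD repeats. The Tex genes act along this whole path. Tex11, Tex14, Tex15, Tex19.1 and Tex19.2 serve germ cells before and during meiosis: TEX11 and TEX15 act in meiotic recombination, TEX14 forms the intercellular bridges that join germ cells, and TEX19.1 restrains transposons. A second group of 10 genes, Tex22, Tex33, Tex36, Tex37, Tex38, Tex43, Tex44, Tex45, Tex46 and Tex47, was counted as spermatid because their products are known from spermatids and sperm, several of them from the microtubules of the sperm tail. Tex2, Tex10, Tex261 and Tex264 have general roles in many tissues, such as membrane traffic, turnover of the endoplasmic reticulum and ribosome maturation. The remaining 14 genes were left unassigned. The classes were set from general knowledge, with earlier results of these data known.

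The 8 arrays were scaled to the same trimmed mean of 500, and their median intensities lay between 90.7 and 124. All 8 meiotic and all 8 spermatid defining genes passed the filter, which takes the mean over all arrays and gives no detection in a single mouse. Summed over the spermatid defining genes, which include the protamine Prm2, intensity was 3850 to 25471 in mutants and 70895 to 123386 in wild type, with no overlap. For the meiotic defining genes, which include Sycp3, the sums were 17364 to 26182 in mutants and 17567 to 26875 in wild type. In RNA of a whole organ, fewer spermatids and less RNA per spermatid cannot be told apart. Replicates 3 and 4 of both genotypes stood apart from replicates 1 and 2: the sum of 8 epididymis genes was 76230 to 92114 in replicates 3 and 4 and 4414 to 8405 in replicates 1 and 2. The labels name no batch, and these sets of replicates are called batches below.

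Because several Tex genes moved together, the bases before their start sites were read from the RefSeq promoter table (build GRCm38.p6), in which 26 of the 33 genes matched. A window ran from 250 bases before to 50 bases after the listed start. For 3 spermatid genes with large differences between genotypes and 3 genes without them, the 150 bases just before the start are printed 5′ to 3′, with each CpG dinucleotide in capitals. CpG dinucleotides are the sites of DNA methylation in mammals, and promoters of broadly used genes are often rich in them.
Tex37, chr6:70918923-70919072, minus strand: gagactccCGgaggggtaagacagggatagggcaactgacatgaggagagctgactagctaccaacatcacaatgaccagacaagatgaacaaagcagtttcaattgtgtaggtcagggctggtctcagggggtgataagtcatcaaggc
Tex44, chr1:86426179-86426328, plus strand: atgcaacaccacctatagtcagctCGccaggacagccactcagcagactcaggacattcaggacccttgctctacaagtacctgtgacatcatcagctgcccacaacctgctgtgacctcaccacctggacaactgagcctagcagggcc
Tex46, chr4:136610287-136610436, plus strand: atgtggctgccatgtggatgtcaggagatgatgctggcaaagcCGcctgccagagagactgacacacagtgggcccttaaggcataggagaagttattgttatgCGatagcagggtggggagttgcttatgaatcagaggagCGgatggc
Tex14, chr11:87404915-87405064, plus strand: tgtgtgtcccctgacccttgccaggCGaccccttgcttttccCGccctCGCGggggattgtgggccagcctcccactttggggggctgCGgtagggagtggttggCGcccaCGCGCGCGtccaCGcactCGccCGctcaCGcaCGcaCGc
Tex19.1, chr11:121145993-121146142, plus strand: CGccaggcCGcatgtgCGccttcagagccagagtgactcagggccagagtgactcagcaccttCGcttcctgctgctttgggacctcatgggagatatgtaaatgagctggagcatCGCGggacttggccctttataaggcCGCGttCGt
Tex264, chr9:106685953-106686102, minus strand: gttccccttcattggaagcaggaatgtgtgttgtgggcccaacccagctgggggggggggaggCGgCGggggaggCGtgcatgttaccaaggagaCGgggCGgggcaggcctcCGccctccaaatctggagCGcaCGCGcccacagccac
The stretches of Tex37, Tex44 and Tex46 hold 1, 1 and 3 CpG dinucleotides, while those of Tex14, Tex19.1 and Tex264 hold 16, 9 and 9. These genes were picked as examples and do not show a clean split. Tex19.2, which was not lower in mutants, holds only 2 in its whole window, and further exceptions are given below.

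The comparison of mutant with wild-type testes asks which Tex transcripts differ in level between the 2 groups of mice. Of the 10 spermatid members 2 fell in mutants without a block, 4 when blocked by replicate number and 3 when blocked by batch. Over all genes tested the shares that fell were 0.268%, 3.12% and 2.16%. Of the 5 meiotic members none was called in any of these fits. The difference between the classes was not tested. All 10 spermatid members had negative log2 differences (mutant minus wild type), from -3.48 to -0.23 with a median of -1.28. A negative difference was found for 37.2% of all genes tested. The 5 meiotic members lay between -0.33 and 0.30 with a median of 0.14, and the median of all 13787 genes tested was 0.07. Of the 33 Tex genes 32 passed the filter on low intensity. The exception was Tex26, whose intensity was at most 59.9 on any array.

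Of these 32 genes, Tex44 and Tex46 fell in mutants without a block (limma, adjusted p under 0.05), a share to be read against 0.268% of all genes tested, and none rose (0.0145% of all genes). With the replicate number as a block 9 fell, against 3.12% of all genes: Tex13a, Tex24, Tex35, Tex37, Tex44, Tex45, Tex46, Tex52 and Tex55. With the batch as a block 7 fell, against 2.16% of all genes, namely the same genes without Tex35 and Tex45. None of the 32 rose in either blocked fit, where 0.326% and 0.471% of all genes did. A negative log2 difference was found for 25 of the 32, against 37.2% of all genes. A log2 difference of 1 or above was found for none of the 32 (0.116% of all genes). At an unadjusted p under 0.05, 16 of the 32 were lower (6.96% of all genes) and none was higher (2.6% of all genes). In 11 of the 32 all 4 mutants lay below all 4 wild types, against 5.26% of all genes, and in none did all mutants lie above (2.53% of all genes). The number of falls without a block depended on single mice: it was 0 without mutant replicate 3 or without wild-type replicate 1, 2 or 3, 1 without mutant replicate 4 or wild-type replicate 4, and 4 without mutant replicate 1.

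**Figure D1:**
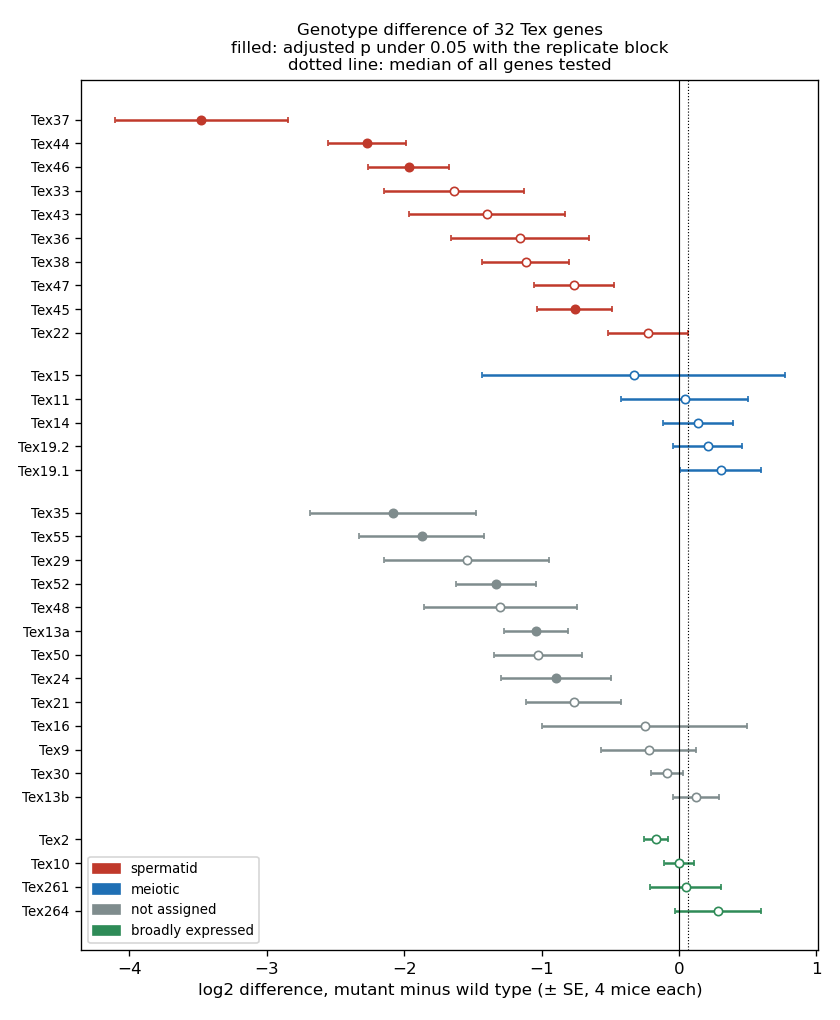
Log2 difference of each of 32 Tex genes (horizontal axis, mutant minus wild type, points with standard errors, 4 mice per genotype), grouped and coloured as spermatid, meiotic, unassigned and broadly expressed. Spermatid genes run from -3.48 to -0.23, meiotic genes from -0.33 to 0.30, and filled points mark the 9 genes that fell with the replicate block.

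Tex37 had the largest difference. It encodes a microtubule inner protein, a class of proteins that line the inside of the axonemal doublets of the sperm tail, and lies on chromosome 6. Its intensity in mutant replicates 1 to 4 was 19.9, 340.3, 115 and 203, against 1715, 2083, 1609 and 939 in wild-type replicates 1 to 4. No mutant reached the lowest wild type, and mutant replicate 1 was by far the dimmest array. Its level was 11.1-fold lower (log2 difference -3.48, standard error 0.63). It was not called without a block (limma, adjusted p = 0.0655) and fell with the replicate block (0.0207) and the batch block (0.0314). Without mutant replicate 1 it was -2.83, and it passed without a block (adjusted p = 0.0235).

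Tex44, a gene linked to the sperm flagellum, and Tex46 fell in all 3 fits. Tex44 read 48.2, 93.1, 76.7 and 96.5 in mutant replicates 1 to 4, against 372, 651, 497 and 282 in wild-type replicates 1 to 4. Tex46 read 56.6, 130.2, 66.3 and 86.5 in mutant replicates 1 to 4, against 308, 607, 294 and 318 in wild-type replicates 1 to 4. In both genes no mutant reached the lowest wild type, and wild-type replicate 2 was the highest mouse. Tex44 fell 4.83-fold, to 78.6 ± 22.0 in mutants against 451 ± 160.3 in wild type (SD, n = 4 each; limma, adjusted p = 0.0229, and 0.00878 with the replicate block). Tex46 fell 3.91-fold in the same fit (limma, adjusted p = 0.0421, and 0.00766 with the replicate block). Its linear intensity averaged 84.9 ± 32.7 in mutants and 382 ± 150.2 in wild type (SD, n = 4 each). The call of Tex46 did not hold after quantile normalization (adjusted p = 0.0594), with median centring (0.0530), with a pseudocount of 1 (0.0509) or in the fit over all probe sets (0.0561).

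Tex33 and Tex43, like Tex37 genes of sperm tail microtubules, were separated between genotypes without passing the test. Tex33 read 482, 2954, 1739 and 2290 in mutant replicates 1 to 4, against 5268, 6522, 4954 and 3240 in wild-type replicates 1 to 4. Tex43 read 470.2, 2831, 2556 and 3483 in mutant replicates 1 to 4, against 4608, 6351, 5667 and 3591 in wild-type replicates 1 to 4. In both, mutant replicate 1 lay far below the other mutants, and the highest mutant came close to wild-type replicate 4. Their log2 differences were -1.64 (standard error 0.51, limma adjusted p = 0.239) and -1.40 (standard error 0.57, adjusted p = 0.450), and the adjusted p with the replicate block was 0.0781 and 0.145. A second probe set of Tex33 gave -1.63, with groups that overlapped, and a second probe set of Tex43 gave -1.40. With mutant replicate 1 left out and the batch as a block, Tex33 passed (log2 difference -0.99, adjusted p = 0.00574) and Tex43 did not (-0.73, adjusted p = 0.0591).

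Tex36 and Tex38 had overlapping groups, with mutant replicate 1 the lowest mouse in each and a narrower spread among the mutants in Tex38. Tex36 read 522, 2985, 2129 and 2749 in mutant replicates 1 to 4, against 3888, 4680, 4344 and 2947 in wild-type replicates 1 to 4. Tex38, whose protein partners the palmitoyltransferase ZDHHC19 in spermatids, read 141, 343, 241 and 252 in mutant replicates 1 to 4, against 702, 687, 491 and 319 in wild-type replicates 1 to 4. In each gene the overlap came from mutant replicate 2 lying just above wild-type replicate 4. Their log2 differences of -1.16 and -1.12 did not pass (limma, adjusted p = 0.500 and 0.182, and 0.181 and 0.0760 with the replicate block). Without mutant replicate 1 the difference of Tex36 was -0.59. Zdhhc19 itself averaged 351 ± 173 in mutants and 909.6 ± 207 in wild type (SD, n = 4 each), a log2 difference of -1.47 (adjusted p = 0.161, and 0.0587 with the replicate block).

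Tex45 and Tex47 differed less. Tex45, a microtubule-associated protein gene of the sperm axoneme, read 542, 997, 528 and 589.5 in mutant replicates 1 to 4, against 1202, 1547, 1070 and 724 in wild-type replicates 1 to 4. Its log2 difference of -0.76 passed with the replicate block (limma, adjusted p = 0.0485) and neither without a block (0.359) nor with the batch block (0.0945). Without mice of number 1 the replicate-blocked adjusted p was 0.0929, and adjusted over all probe sets in place of genes it was 0.0504. Tex47 read 374, 719, 847 and 1009 in mutant replicates 1 to 4, against 912, 1355, 1363 and 1180 in wild-type replicates 1 to 4. The groups overlapped only through mutant replicate 4 and wild-type replicate 1, and the log2 difference, also -0.76, was not called (adjusted p = 0.408, and 0.0596 with the replicate block).

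Tex22, whose protein lies in the acrosomal region, was the spermatid member with the smallest difference. It read 3650, 5349, 2574 and 2645 in mutant replicates 1 to 4, against 5101, 5192, 3580 and 2650 in wild-type replicates 1 to 4. The groups overlapped over nearly their whole range, and the highest value of all was that of mutant replicate 2. Its difference of -0.23 on the log2 scale (standard error 0.29) was not called (limma, adjusted p = 0.967). Among the spermatid members Tex22 alone was called between the batches, its level being 0.75 log2 units lower in replicates 3 and 4 than in replicates 1 and 2 (adjusted p = 0.00251). That the genotype difference of Tex22 departs from that of the other spermatid members was not tested.

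**Figure D2:**
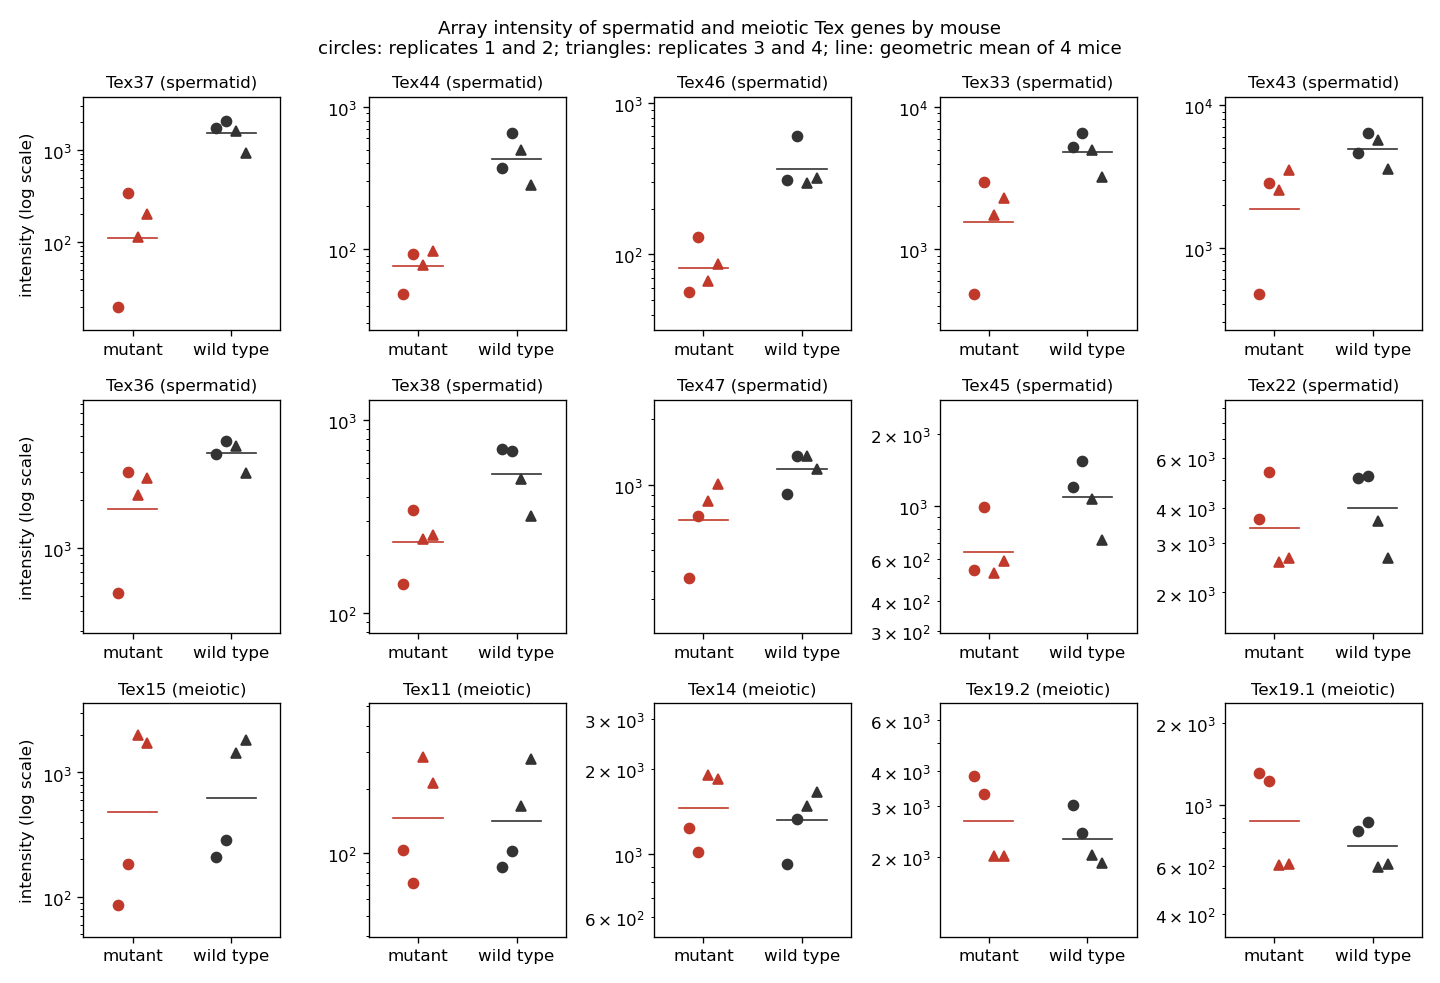
Array intensity (vertical axes, log scale) of the 10 spermatid and 5 meiotic Tex genes in each mutant (left, red) and wild-type mouse (right, black), with circles for replicates 1 and 2, triangles for replicates 3 and 4 and a line at the geometric mean of 4 mice. Tex37 reads 19.9 to 340.3 in mutants and 939 to 2083 in wild type, while in Tex15 the circles and triangles part within each genotype.

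All 5 meiotic members were called between batches, where 22.2% of all genes were higher and 20.3% lower in replicates 3 and 4, and none was called between genotypes. Tex15, which acts in meiotic recombination and in transposon silencing, read 86.6, 185, 2002 and 1714 in mutant replicates 1 to 4, against 208, 286, 1424 and 1836 in wild-type replicates 1 to 4. Tex11, an X-linked gene needed for crossovers, read 104, 71.9, 286 and 214 in mutant replicates 1 to 4, against 85.3, 102, 167 and 280.3 in wild-type replicates 1 to 4. In both genes every mouse of replicates 3 and 4 lay above every mouse of replicates 1 and 2, in either genotype. Tex14, the gene of the intercellular bridges, read 1239, 1018, 1899 and 1849 in mutant replicates 1 to 4, against 920.4, 1333, 1485 and 1655 in wild-type replicates 1 to 4. Their genotype differences were -0.33 for Tex15, 0.04 for Tex11 and 0.14 for Tex14 (limma, adjusted p from 0.993 to 0.998). The level in replicates 3 and 4 was 3.18, 1.23 and 0.61 log2 units above that in replicates 1 and 2 (adjusted p = 0.00014, 0.00184 and 0.00675).

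Tex19.1 and Tex19.2, neighbouring relatives on chromosome 11, ran the other way between batches. Whether their probe sets share signal was not tested. Tex19.1 read 1317, 1233, 603 and 610.1 in mutant replicates 1 to 4, against 805, 871, 595 and 608 in wild-type replicates 1 to 4. Tex19.2 read 3817, 3311, 2010 and 2008 in mutant replicates 1 to 4, against 3045, 2428, 2038 and 1899 in wild-type replicates 1 to 4. Both mutants of replicates 1 and 2 were above both wild types there, whereas in replicates 3 and 4 the genotypes read alike. The genotype differences of 0.30 and 0.21 were not called (limma, adjusted p = 0.930 and 0.962), nor was their change between batches (interaction adjusted p = 0.738 for each). Both genes were lower in replicates 3 and 4 than in replicates 1 and 2, by 0.76 and 0.64 log2 units (adjusted p = 0.0024 and 0.00246).

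Between the batches 6 of the 32 Tex genes were higher in replicates 3 and 4 (22.2% of all genes) and 5 were lower (20.3%). The higher ones were Tex11, Tex14, Tex15, Tex9, Tex16 and Tex24, and the lower ones Tex19.1, Tex19.2, Tex22, Tex261 and Tex264. Each batch held 2 mice of each genotype. All 8 epididymis genes were higher in replicates 3 and 4, by a median of 6.78 log2 units, and 5 of the 8 meiotic defining genes were too, with a median difference of 0.56 over the 8. The part of these markers in the batch differences of the Tex genes was not tested. The epididymis genes did not separate the genotypes: none of the 8 passed, their median log2 difference was 0.08, and their summed intensity was 5508 to 92114 in mutants and 4414 to 76349 in wild type. Among the epididymis genes with the smallest p, Spink8, Lcn9, Gpx5 and Lcn2 had log2 genotype differences of 0.64, 0.42, -0.47 and 0.05.

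Of the 13 unassigned members above the filter 12 had negative log2 differences (37.2% of all genes did). None fell without a block (0.268% of all genes), 5 fell when blocked by replicate number (3.12%) and 4 when blocked by batch (2.16%). Tex35 read 69.2, 562, 435 and 635 in mutant replicates 1 to 4, against 1229, 2002, 1834 and 986 in wild-type replicates 1 to 4. Tex55 read 64.02, 259, 321 and 362 in mutant replicates 1 to 4, against 734, 942, 1024 and 659 in wild-type replicates 1 to 4. Both were separated between genotypes, with mutant replicate 1 again the lowest. Their differences of -2.08 (standard error 0.60) and -1.87 (standard error 0.46) were called with the replicate block (limma, adjusted p = 0.0482 and 0.0284) and not without one (0.200 and 0.125). With the batch block Tex55 passed (0.0448) and Tex35 did not (0.0969). Without mutant replicate 1 the difference of Tex35 was -1.41 and that of Tex55 -1.36.

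Tex52 and Tex13a passed in the same 2 blocked fits. Tex52 read 76.4, 201, 133 and 147 in mutant replicates 1 to 4, against 365, 468, 391.8 and 241 in wild-type replicates 1 to 4. The X-linked Tex13a read 196, 258, 284 and 315 in mutant replicates 1 to 4, against 501, 682, 708 and 380.2 in wild-type replicates 1 to 4. Neither gene had overlapping groups, and the mutants of Tex13a were close to each other, replicate 1 included. Tex52 was 2.51-fold lower (limma, adjusted p = 0.0255 with the replicate block, 0.0447 with the batch block and 0.0950 without) and Tex13a 2.06-fold lower (0.0371, 0.0450 and 0.101). Its relative Tex13b, also X-linked, averaged 433 ± 71.3 in mutants and 394 ± 50.8 in wild type (SD, n = 4 each), a log2 difference of 0.13 (adjusted p = 0.968).

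Tex24 differed between batches and between genotypes. It read 335, 383, 1091 and 851 in mutant replicates 1 to 4, against 701, 1087, 1359 and 1460 in wild-type replicates 1 to 4. Within each batch both mutants lay below both wild types, although the groups overlapped across batches. Its log2 difference of -0.89 passed with the replicate block (limma, adjusted p = 0.0472) and the batch block (0.0469) and was far from the threshold without one (0.538). Its level was 1.03 log2 units higher in replicates 3 and 4 than in replicates 1 and 2 (adjusted p = 0.00301). With mice of number 1 left out the replicate-blocked adjusted p was 0.0598.

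Tex29, Tex48 and Tex50 had means over 2-fold lower and no call in any of the 3 fits. Tex29 read 303, 2459, 1675 and 2180 in mutant replicates 1 to 4, against 3875, 5033, 4217 and 2546 in wild-type replicates 1 to 4. Tex48 read 243, 1688, 1123 and 1421 in mutant replicates 1 to 4, against 2387, 3167, 2372 and 1433 in wild-type replicates 1 to 4. In these 2 genes mutant replicate 1 was several times dimmer than any other mouse. Tex50 read 63.7, 144, 148 and 132 in mutant replicates 1 to 4, against 298, 398, 206 and 169 in wild-type replicates 1 to 4. The log2 differences were -1.55, -1.30 and -1.03 (limma, adjusted p = 0.414, 0.492 and 0.241). Without mutant replicate 1 they were -0.87, -0.69 and -0.78, each under 2-fold, and for Tex50 also without wild-type replicate 1 (-0.95) or 2 (-0.82). The other unassigned members, Tex21, Tex16, Tex9, Tex30 and Tex13b, had log2 differences from -0.77 to 0.13 and none was called.

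The broadly expressed members did not separate the genotypes. Tex10, of a nuclear complex for ribosome maturation, averaged 4505 ± 381 in mutants and 4510 ± 315 in wild type (SD, n = 4 each). Tex2, a lipid-transfer protein of the endoplasmic reticulum, averaged 6810 ± 371 in mutants and 7645 ± 236 in wild type, which is -0.17 on the log2 scale (standard error 0.09; limma, adjusted p = 0.662). Tex261, of the early secretory pathway, and Tex264, a receptor for autophagy of the endoplasmic reticulum, had differences of 0.05 and 0.28 (adjusted p = 0.997 and 0.951). Of 8 genes whose products work with these proteins, none passed in any of the 3 fits, and their median was 0.06. Those with the smallest p were Senp3 (0.16), Mdn1 (-0.22), Las1l (0.14) and Vcp (0.06), as log2 differences.

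The individual mice showed how the classes parted. For each mouse the median over a class was taken of the log2 deviation from the wild-type mean of each gene. For spermatid members it was -2.59, -0.71, -1.05 and -0.94 in mutant replicates 1 to 4, and 0.06, 0.40, 0.05 and -0.58 in wild-type replicates 1 to 4. The mutants were all below the wild types, with mutant replicate 1 far down and wild-type replicate 4 the lowest of its group. For meiotic members it was -0.09, -0.37, 0.52 and 0.48 in mutant replicates 1 to 4, and -0.51, 0.02, 0.17 and 0.32 in wild-type replicates 1 to 4, so the genotypes overlapped. The spermatid value minus the meiotic value was -2.51, -0.34, -1.57 and -1.43 in mutant replicates 1 to 4, and 0.57, 0.39, -0.12 and -0.90 in wild-type replicates 1 to 4. On this measure mutant replicate 2 lay above wild-type replicate 4, while within each batch both mutants were below both wild types. Mutant replicate 1 was the lowest of the 8 arrays for 19 of the 32 Tex genes, against 14.3% of all genes, and for 8 of the 10 spermatid members.

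**Figure D3:**
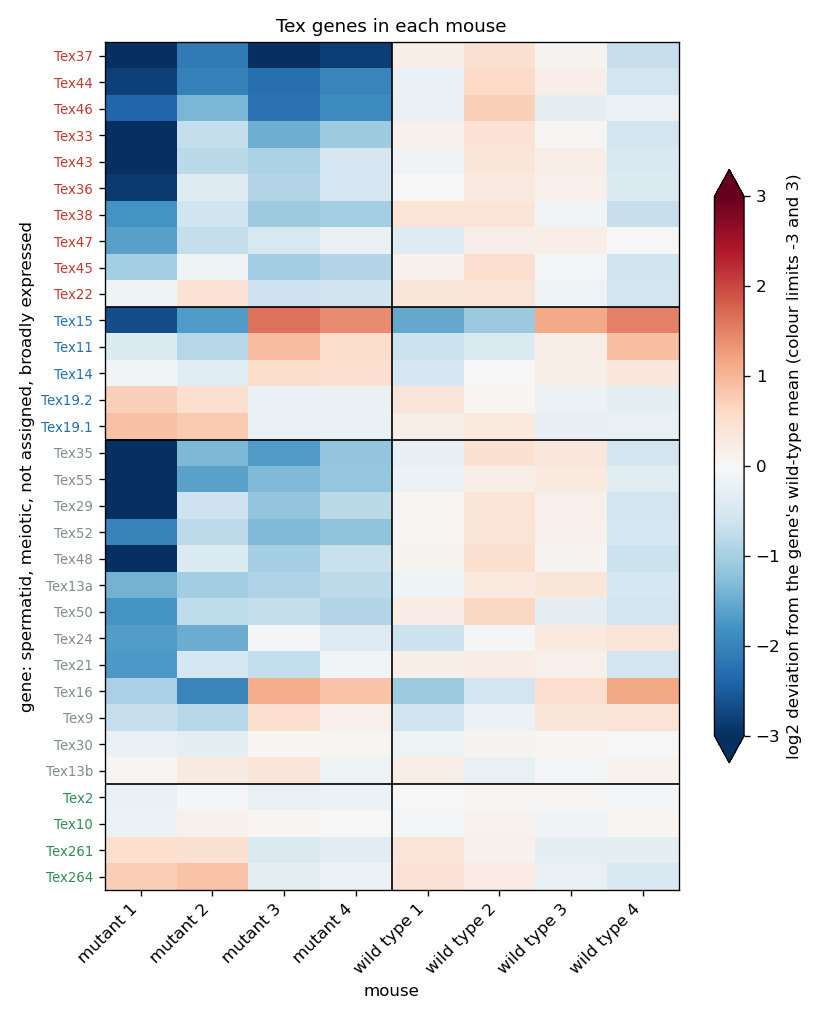
Log2 deviation of 32 Tex genes (rows, in the order spermatid, meiotic, unassigned and broadly expressed) from the wild-type mean of the gene in the 4 mutant and the 4 wild-type mice (columns), with blue for lower and red for higher and colour limits at -3 and 3. Apart from Tex22, the spermatid rows are blue in the mutants, and 8 of the 10 are lowest in mutant replicate 1, and Tex15 changes colour between replicates 1 and 2 and replicates 3 and 4 of both genotypes.

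Within replicates 3 and 4 the median over spermatid members was -0.65, and within replicates 1 and 2, which include mutant replicate 1, it was -1.94. For meiotic members these medians were 0.18 and 0.02. The difference was less negative or more positive within replicates 3 and 4 for 25 of the 32 Tex genes, against 44.7% of all genes. Tex37 had log2 differences of -2.88 within replicates 3 and 4 and -4.08 within replicates 1 and 2, Tex44 had -1.94 and -2.60, and Tex46 had -1.81 and -2.12. Within replicates 3 and 4 alone Tex37 and Tex46 passed (limma, adjusted p = 0.0388 and 0.0415). Over all 13787 genes 26 were called lower and 1 higher there. Within replicates 1 and 2 alone no gene of the array passed. The change of the genotype difference between batches passed for none of the 32 Tex genes nor for any of the 13787 genes in limma's interaction test. At an unadjusted p under 0.05 it numbered 738 genes, 5.35% of those tested, among them Tex15, Tex19.1 and Tex50.

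**Figure D4:**
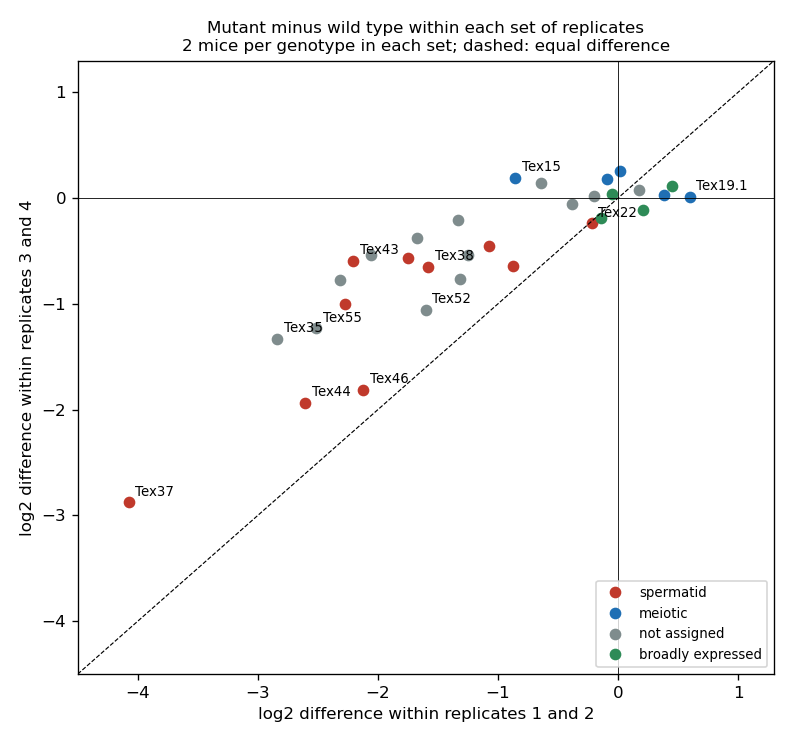
Log2 difference, mutant minus wild type, of 32 Tex genes within replicates 1 and 2 (horizontal axis) and within replicates 3 and 4 (vertical axis), with 2 mice per genotype in each and a dashed line of equal difference. Most spermatid genes lie above the line, Tex37 at -4.08 and -2.88, and meiotic genes lie near 0 on the vertical axis.

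Genes whose products work with the Tex proteins were counted in the same fits. The 21 measured partners and neighbours of spermatid Tex proteins included tektins, subunits of the CatSper calcium channel and other axonemal genes. Of these 18 had negative log2 differences, against 37.2% of all genes, and the median over the 21 was -0.40. Of these 21, Spaca9, which encodes a microtubule inner protein, alone fell in the blocked fits (limma, adjusted p = 0.0241 by replicate number and 0.0444 by batch). In these 2 fits 3.12% and 2.16% of all genes fell. None of the 21 passed without a block. Spaca9 averaged 2364 ± 755 in mutants and 5758 ± 1594 in wild type (SD, n = 4 each). Catsper3 and Catsper1, of the sperm calcium channel, had log2 differences of -1.44 and -1.27 with all mutants below all wild types, as in 5.26% of all genes, and were not called. Efcab9, also a gene of this channel, had a difference of -1.09, likewise with all mutants below all wild types, and was not called. The other 3 listed genes with a Catsper symbol, Catsper2, Catsperg1 and Catsperd, had differences of -0.12, -0.14 and 0.06 with overlapping groups. Of 13 measured partners of meiotic Tex proteins none passed in any fit, and the median was -0.03. The lowest p among them was that of Dnmt3l, a cofactor of DNA methylation in germ cells, with 89.9 ± 20.1 in mutants and 188 ± 52.7 in wild type (log2 difference -0.93, adjusted p = 0.143). Msh4, Plk1 and Morc1 followed, at -0.31, -0.35 and 0.34. Of the 8 spermatid defining genes all had negative log2 differences (37.2% of all genes did), with a median of -2.88. Prm2 alone fell without a block (0.268% of all genes), while 6 fell when blocked by replicate number (3.12%) and 5 when blocked by batch (2.16%). None of the 8 meiotic defining genes passed, and their median was -0.11.

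No somatic marker was called. All 14 measured Sertoli cell genes had positive log2 differences with a median of 0.14, and none passed in any of the 3 fits. Over all genes tested only 37.2% had negative differences, and the median was 0.07. Their summed intensity was 56500 to 81534 in mutants and 52699 to 67594 in wild type. Of 7 Leydig cell genes none passed, the median was 0.16, and the sums were 24847 to 34800 in mutants and 19558 to 31669 in wild type. The genes with the smallest p were Clu (0.20) and Sox9 (0.21) of Sertoli cells and Hsd3b1 (0.47) and Fdx1 (0.30) of Leydig cells, as log2 differences. In Clu and Hsd3b1 all mutants lay above all wild types, as in 2.53% of all genes. The part of somatic cells in the Tex differences was not tested.

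The promoter windows shown at the start differed between Tex genes with and without a 2-fold lower level. Of the 14 members with a log2 difference of -1 or below (4.15% of all genes tested were that low), 11 had a promoter in the table, and their windows held 1 to 5 CpG dinucleotides with a median of 3. The 14 other members with a promoter held 0 to 41 with a median of 16.5. At most 6 CpG dinucleotides, a limit set after these counts were seen, were found in all 11 of the first and in 5 of the 14 others, which were Tex45, Tex47, Tex16, Tex19.2 and Tex21. Over all genes tested with a promoter, the share with at most 6 was 67.4% of 463 genes at -1 or below and 14.0% of the other 10658 genes. The Tex genes thus showed the same direction as the array as a whole, and no test was made on these counts. All 4 broadly expressed members held 21 to 41. Among the meiotic members Tex14 held 20 and Tex19.1 held 16, while Tex19.2 held 2 and was not lower in mutants.

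**Figure D5:**
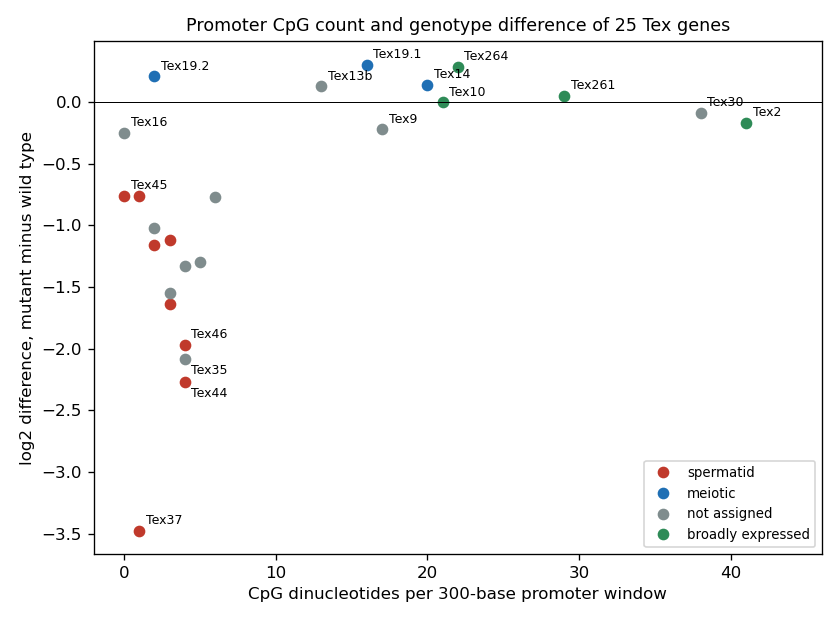
CpG dinucleotides in the 300-base promoter window (horizontal axis) and log2 difference, mutant minus wild type (vertical axis), of 25 Tex genes, coloured by class. Genes at -1 or below hold 1 to 5 CpG dinucleotides, and genes with 13 or more lie near 0.

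Short motifs were searched on both strands of the same windows. The full cAMP response element TGACGTCA, the site of the spermatid activator CREM, was in none of the 25 windows of measured Tex genes and in 3.07% of those of all genes tested. Its first 5 bases TGACG, which the full element contains, were in 4 of 25 (30.3% of genes tested). The GC box GGGCGG was in 7 of 25 (61.1% of genes tested), in all 4 broadly expressed members and in none of the 8 spermatid members with a promoter. The X-box half-site GTTGCC was in 6 of 25 (13.4%), namely Tex37, Tex33, Tex36, Tex35, Tex19.2 and Tex9, of which Tex19.2 and Tex9 had log2 differences of 0.21 and -0.22. TATAAA was in 2 of 25 (7.48%) and CCAAT in 6 of 25 (38.3%). GGGCGG and TGACG each contain a CpG dinucleotide, and the spermatid windows held only 0 to 4 of these. Among genes tested with a log2 difference of -1 or below, GGGCGG was in 25.9%, TGACG in 18.6% and GTTGCC in 19.0%. The motif matches are descriptions of the windows and not evidence of binding.

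Other probe sets of the Tex genes gave little disagreement. Of the 8 genes with more than 1 probe set, Tex21, Tex33, Tex43, Tex2, Tex10 and Tex13b had the same sign on each probe set above the filter. In Tex9 and Tex261 the signs differed, with log2 differences between -0.22 and 0.13 and no call on any. No probe set of these 8 genes passed the test in any of the 3 fits over probe sets. A probe set that the annotation gives to Tex52 together with Pebp1 and Foxm1 was not used.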

How the data were processed

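Total RNA of whole testes, purified after Trizol extraction and labelled with biotin, was hybridised to Affymetrix arrays, as the labels' protocols state. The authors deposited linear intensity values. The submitters' processing notes name GCOS as the software, with no version or settings. The deposited table has no detection calls, and each array has a mean of 500 after trimming 2% at each end. Of 45101 probe sets, 64 controls were left out. Probe sets with a single symbol numbered 34945, of which 34741 had their symbol checked through Entrez identifiers in the RefSeq gene table (GRCm38.p6). Values were taken as log2(value + 16), so folds understate changes of dim genes. Probe sets above the 40th percentile of mean log2 value were kept (27022), and the brightest represented a gene, which gave 13787 genes. Means ± SD are of linear intensities. Genotypes were compared with limma 3.58.1 (R 4.3.3; lmFit and eBayes with trend, two-sided, Benjamini-Hochberg over all genes, threshold 0.05), without a block and with the replicate number or the batch as a block. The interaction of genotype and batch was fitted in the same way. Replicate numbers are shared by both genotypes in the labels, and the replicate block treats same-numbered mice as paired. Deviations of same-numbered mice correlated (r from 0.515 to 0.677 over genes), which the difference between batches alone can produce. Of the 4 mutants 2 were closest to the wild type of their own number. Mutant replicates 3 and 4 were closest to wild-type replicates 4 and 3, so pairing by number within a batch was not shown. The test was checked on simulated data. Figures were drawn with matplotlib 3.10.9. The members, classes, lists and most alternatives were chosen with earlier results of these data known. Values in every mouse are given for genes called in any of the 3 fits, for spermatid and meiotic members and for members with a log2 difference of at least 1 in size. Labels do not say whether mice were littermates. The number of arrays limits the precision.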

Additional observations from a re-analysis of the deposited data

Results flagged for a closer look

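In 4 cases 1 of the 4 mice of a genotype stood apart from the other 3, by a gap to its neighbour that was a large share of the group's range on the log2 scale. Of 64 groups searched, 32 genes in each genotype, these 4 are 6.25%, close to the 5% that chance flags. Mutant replicate 1 was low for Tex43 (470.2 against 2556 to 3483 in the other mutants, a share of 0.844) and for Tex50 (63.7 against 132 to 148, a share of 0.851). In wild type, replicate 4 was low for Tex21 (296 against 494 to 519.5, a share of 0.911), and replicate 2 was high for Tex46 (607 against 294 to 318, a share of 0.895). Without wild-type replicate 2 the log2 difference of Tex46 was -1.73 (limma, adjusted p = 0.116).

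Tex261 moved in opposite directions in the batches: both mutants lay below both wild types in replicates 3 and 4 and above them in replicates 1 and 2. The difference between the batches was -0.325 on the log2 scale and did not pass limma's interaction test (adjusted p = 0.738).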

How the results depend on the processing

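No Tex gene was called higher in mutants under any alternative. The number called lower, 2 without a block, was 9 with the replicate block, 7 with the batch block, 0 within replicates 1 and 2, and 1 after quantile normalization, with median centring, with a pseudocount of 1 and with the 60th percentile filter, which left out Tex46. Leaving out single mice, without a block, gave 0 to 4. In alternatives chosen after seeing the data it was 11 when mutant replicate 1 was omitted under the batch block, and 9 when number 1 was omitted under the replicate block. The count over all genes moved too, from 37 lower without a block to 430 with the replicate block and 89 with a pseudocount of 64. The pairing by replicate number changed no call of a Tex gene other than the 7 added. The spermatid median stayed below 0 throughout, between -1.94 and -0.65, and between -1.54 and -0.82 over the omissions of single mice. The meiotic median lay between -0.03 and 0.23. Signs turned for 7 members with differences from -0.33 to 0.14: within replicates 3 and 4 Tex10 (0.040), Tex15 (0.19), Tex16 (0.14), Tex261 (-0.11) and Tex30 (0.022), within replicates 1 and 2 Tex11 (-0.092), and after quantile normalization Tex10 (0.0066). When mutant replicate 1 was omitted under the batch block Tex10 (0.064) and Tex11 (-0.020) turned, as they did when number 1 was omitted under the replicate block (0.031 and -0.023). Over the omissions of single mice Tex10 ran from -0.045 to 0.052, Tex11 from -0.25 to 0.34, Tex14 from -0.033 to 0.31, Tex15 from -0.98 to 0.45, Tex16 from -0.70 to 0.32 and Tex261 from -0.10 to 0.21. Causes were not tested. Without detection calls, the floor under dim values such as those of Tex37 in mutant replicate 1 is unknown.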
